A study of Rattus norvegicus with 8 samples.

Results

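The RNA of the untreated adult rat testis was described as an order of signal over all probe sets of 3 expression arrays. The arrays were those titled as normal adult testis, 3 of the 8 arrays of the series, and each of the 31042 probe sets that are not Affymetrix controls was ranked by its mean signal over them. The animals were adult Sprague-Dawley rats that received no agent, and their age is not given in the sources used here. Whole testis was extracted, so the RNA of germ cells, Sertoli cells, Leydig cells and vessels was measured together. The other 5 arrays of the series held testes of rats given Adjudin, and they were not compared here. Because no groups were compared there is no test, and the error given is the spread over 3 arrays, which the labels do not describe as 3 separate animals. In such whole tissue, fewer cells of a type and less RNA per cell cannot be told apart. A probe set is a group of short probes for the end of a transcript, and its signal depends on how well they bind as well as on the amount of RNA. The order is therefore one of signal and not of transcript numbers.

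Sperm form in the seminiferous tubules, where spermatogonia divide, spermatocytes go through meiosis, and the resulting spermatids are round before they elongate into sperm. Elongating spermatids replace the histones on their DNA by transition proteins and then by protamines, and build the tail and its mitochondrial sheath. Sertoli cells hold and nourish the germ cells inside the tubule, while Leydig cells between the tubules make testosterone.

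The 3 arrays gave a like order with 1 array standing apart at the bright end. Signals were MAS 5.0 values as the authors deposited them, and their mean after trimming 2% at each end had an SD of 0.0115 signal units over the arrays (n = 3). The median signal was 71.9, 68.8 and 57.0 on arrays 1, 2 and 3. A signal of 50, used below as a lower bound, was reached by 53.2% to 59.0% of the probe sets. Genes called measured below have a probe set with 1 gene symbol, whatever its signal. Arrays 1 and 2 shared 90 of their 100 brightest probe sets, while array 3 shared 82 with each of them. The rank correlation over probe sets was 0.954 for arrays 1 and 2, and 0.925 and 0.923 for array 3 with them. These correlations describe arrays of 1 tissue over the same probe sets and carry no p. The settings files name a different project for each array. Array 2 was washed and stained with another version of the protocol (version 4, not 5), with a wash at 25 °C in place of 30 °C and a first stain of 600 s in place of 300 s. Its settings file also records the sample type as mouse where the labels give rat. The array and its run cannot be told apart.

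Transcripts of late germ cells led the order. The brightest probe set was that of Prm1, a protamine that packs the DNA of sperm, with signals of 20531, 16767 and 28324 on arrays 1, 2 and 3. It was the brightest probe set on each of the 3 arrays. Smcp, a cysteine-rich protein of the sperm mitochondrial sheath, gave 15273, 14105 and 20282.0. Oaz3, the antizyme of spermatids that regulates polyamine synthesis, gave 14761, 13352 and 20588. All 3 of these genes were highest on array 3 and lowest on array 2.

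Tnp1, a transition protein that takes the place of histones, gave 14539, 12999 and 20923. Tnp2, another transition protein, gave 11963, 11369 and 17915. Odf1 and Odf2, proteins of the outer dense fibres of the sperm tail, had mean signals of 15165 ± 3891 and 14992 ± 3418 (SD, n = 3). Gpx4, a peroxidase that also forms part of the sperm midpiece, had 15539 ± 3212. Chromatin packing, tail and midpiece were thus all represented among the 10 brightest named probe sets.

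The enzymes and other proteins among the 25 brightest probe sets with 1 gene symbol also included forms found in germ cells. Gapdhs, the glycolytic enzyme of the sperm tail, gave 11716, 11581 and 15694. Ldhc, the lactate dehydrogenase of spermatocytes and sperm, gave 10915, 10268 and 14214. Fabp9, a fatty acid binding protein of the testis, had a mean of 12667 ± 2747 (SD, n = 3). Crisp2, a cysteine-rich secretory protein of the acrosome and tail, had 14710 ± 3347.

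Hspb9, a small heat shock protein of the testis, had 14886 ± 4622 (SD, n = 3). Gsg1, a germ cell gene, appeared with both of its probe sets, at 15927 ± 4999 and 14526 ± 3356. Spata6, a protein needed for the joint of sperm head and tail, had 14561 ± 2132. These genes were named by their place in the order, and the level of one cannot be set against another beyond that.

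COX1 and COX2, the subunits of cytochrome oxidase that mitochondrial DNA encodes, were the only mitochondrially encoded genes among the 25, with means of 16653 ± 4437 and 15986 ± 3483 (SD, n = 3). Pebp1, a phosphatidylethanolamine binding protein, had 14595 ± 3493 and Gstm5, a glutathione transferase, 13766 ± 2513. Psma6, a subunit of the proteasome core, had 12509 ± 3675, and Tubb4b, a beta tubulin, 12060 ± 2208. Fam229b, Cmtm2a and Morf4l1, a chromatin protein, complete the 25, with means of 14166, 12509 and 11734. The 25 probe sets stood for 24 genes.

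**Figure D1:**
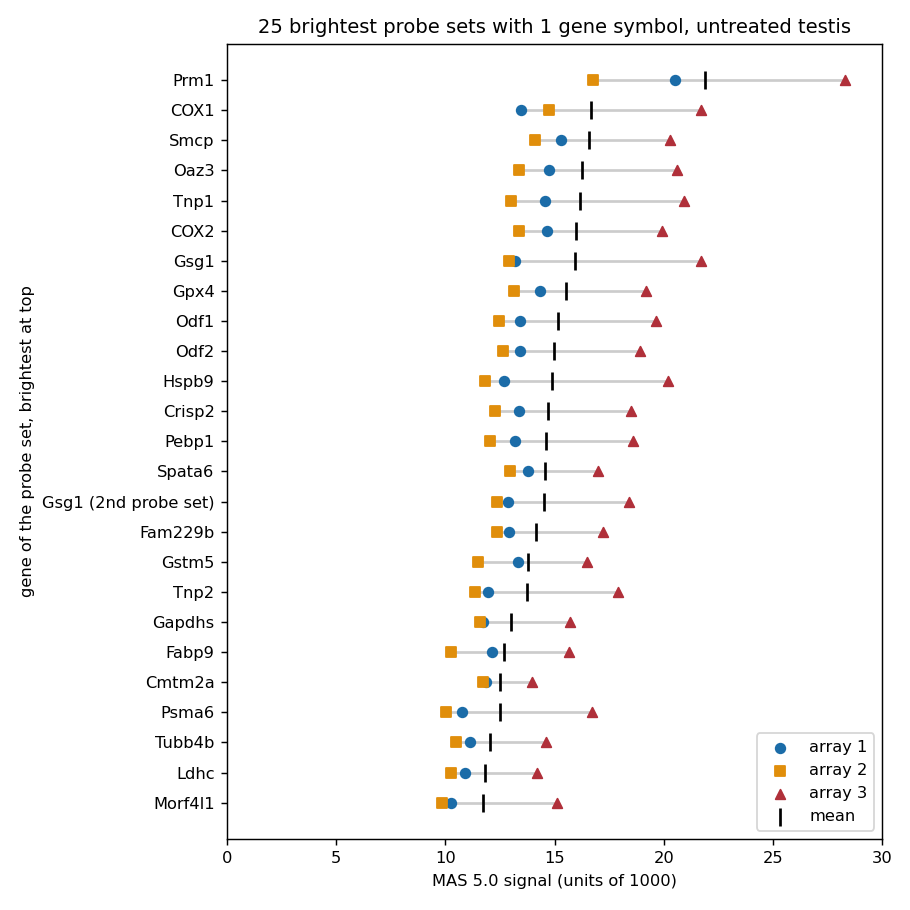
Signal of the 25 brightest probe sets with 1 gene symbol (x axis, MAS 5.0 signal in units of 1000, starting at 0), 1 line per probe set, with a point for each of the 3 arrays and a tick for their mean. Every probe set was highest on array 3 (25 of 25), 24 were lowest on array 2, and the mean of Prm1 lay to the right of all other means.

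Signal was spread over many genes. The 10 brightest probe sets took 1.46% ± 0.281 of the summed signal of an array (SD, n = 3), the 100 brightest took 9.86% ± 1.39 and the 1000 brightest 43.9% ± 3.43. The mean signal fell from 8572 at rank 100 to 2398 at rank 1000 and 444.9 at rank 5000. Of the 100 brightest probe sets 78 had 1 gene symbol, 11 had several and 11 had none in the probe table. Probe sets with several symbols, such as that for the beta and gamma actin genes or that for the ferritin heavy chain gene and its pseudogene, are not named as single genes. For the rest of the text a gene stands for its brightest probe set, which gave 14217 genes.

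The list named for elongating spermatids had the highest median signal. The list held 40 symbols, of which 28 were measured, and 24 of these 28 were among the 500 brightest genes, where 3.52% of all genes lie. All 28 reached a signal of 50 on the 3 arrays, as did 66.8% of all genes. The median rank of the list was 83.5 of 14217, against 7109 for all genes, and its members took 3.12% ± 0.382 of the signal summed over genes (SD, n = 3). The lowest member was Tekt5, a filament protein of the tail, with 973.2, 1189 and 1008, at rank 1972. Akap4, the main protein of the fibrous sheath of the tail, lay at rank 44, and Akap3, its partner there, at rank 107. The order within the list was thus wide, from rank 1 to rank 1972.

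The letters before the start of these genes are shown because cAMP response elements are known to bind CREM, a transcription factor of spermatids. RefSeq's promoter table (GRCr8) held 24 of the 28 genes. Below are the 200 bases before the start of the 6 brightest members that it holds, 5′ to 3′ on the strand of the gene, with capitals for TGANGTCA on either strand, where N is any base.
Prm1, chr10:5378540-5378739, plus strand: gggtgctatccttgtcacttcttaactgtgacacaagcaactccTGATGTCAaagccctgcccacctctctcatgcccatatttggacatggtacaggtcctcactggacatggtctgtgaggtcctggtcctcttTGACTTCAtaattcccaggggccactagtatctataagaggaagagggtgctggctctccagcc
Smcp, chr2:180861565-180861764, minus strand: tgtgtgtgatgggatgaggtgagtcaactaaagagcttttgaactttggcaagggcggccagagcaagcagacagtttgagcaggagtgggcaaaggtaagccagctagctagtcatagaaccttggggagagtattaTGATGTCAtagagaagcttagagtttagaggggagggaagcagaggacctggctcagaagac
Oaz3, chr2:184765177-184765376, minus strand: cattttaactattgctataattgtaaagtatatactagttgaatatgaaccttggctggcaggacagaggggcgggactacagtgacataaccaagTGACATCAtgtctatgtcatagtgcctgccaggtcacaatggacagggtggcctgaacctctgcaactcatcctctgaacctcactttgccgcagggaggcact
Tnp1, chr9:82044279-82044478, minus strand: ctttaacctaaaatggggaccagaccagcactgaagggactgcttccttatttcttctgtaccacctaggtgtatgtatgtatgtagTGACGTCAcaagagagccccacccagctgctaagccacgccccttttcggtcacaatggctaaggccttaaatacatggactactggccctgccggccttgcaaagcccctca
Odf2, chr3:33559067-33559266, plus strand: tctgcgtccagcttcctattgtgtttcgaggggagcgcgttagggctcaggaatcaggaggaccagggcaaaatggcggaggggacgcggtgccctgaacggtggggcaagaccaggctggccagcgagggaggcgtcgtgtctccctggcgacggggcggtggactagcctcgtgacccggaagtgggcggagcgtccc
Tnp2, chr10:5386535-5386734, plus strand: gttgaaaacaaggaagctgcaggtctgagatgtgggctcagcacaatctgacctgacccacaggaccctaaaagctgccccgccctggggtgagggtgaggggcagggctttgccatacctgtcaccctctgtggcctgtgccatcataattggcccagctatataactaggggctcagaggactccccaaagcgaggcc

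Tnp1 held the full element TGACGTCA from 113 to 106 bases before its start. Prm1 held TGATGTCA from 156 to 149 bases and Smcp from 62 to 55 bases before the start, while Oaz3 held the same element on the other strand, where it reads TGACATCA, from 104 to 97 bases. No capitals stand in the stretches of Odf2 and Tnp2, which says only that these letters are not in them. Over windows of 300 bases, from 250 before to 50 after the start, TGACGTCA stood in 2.85% of the promoters of all genes measured and in 11 of 423 (2.60%) of those of the 500 brightest genes. TGATGTCA stood in 1.86% of all promoters, 24 of 423 (5.67%) of the 500 brightest, 12 of 82 (14.6%) of the 100 brightest and 8 of 24 (33.3%) of the elongating spermatid list. TGATGTCA was chosen after 8 promoters had been read. Without those it stood in 1.83% of all, 8 of 74 (10.8%) of the 100 brightest and 4 of 17 (23.5%) of the list. The 4 genes of the list were Akap4, Akap3, Capza3 and Actl7b. Outside the list, the genes with it among the 100 brightest were Spata6, Glul, Asrgl1, Hk1, Hmgb4, 1700009N14Rikl and C7h12orf54.

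All elements were searched on both strands. TGANGTCA, which contains TGACGTCA and TGATGTCA, stood in 7.13% of all promoters and in 12.8% of those of the 500 brightest genes. TGACG, which is also part of TGACGTCA, stood in 29.2% of all and 35.5% of the 500. In the elongating spermatid list TGACGTCA stood in 1 of 24 promoters (4.17%), TGACG in 8 (33.3%) and TGANGTCA in 10 (41.7%). Among the 100 brightest genes these counts were 4 of 82 (4.88%), 26 (31.7%) and 21 (25.6%). TATAAA stood in 8.45% of all and 8.98% of the 500, CCAAT in 37.3% and 40.0%, and GGGCGG in 57.5% and 57.2%. The promoters of the elongating spermatid list had a median of 6.5 CG pairs, against 20 in the 500 brightest genes and 19 in all. Their genes had a median span of 3.84 kb, against 22.3 kb for all genes and 3.58 kb for the ribosomal protein genes. Among the 500 brightest genes the median span was 13.4 kb.

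The lists named for earlier germ cell stages lay lower. Whole testis RNA does not show at which stage a transcript was made, so this orders the lists and not the stages. Here and in later paragraphs, counts among the 500 brightest stand against 3.52% of all genes. Counts that reach 50 on all arrays stand against 66.8%. Of 12 measured round spermatid genes 3 were among the 500 brightest, and the median rank was 880.5. Tssk2, a testis-specific kinase, gave 7535, 7065 and 9683, and Adam2, a surface protein for sperm and egg contact, gave 4118, 4470.2 and 6489.6. Acrbp, which binds the acrosomal protease, had a mean of 4052 ± 436.6 (SD, n = 3). Camk4, a calcium-dependent kinase, and Zpbp, which binds the coat of the egg, followed just outside the 500, with means of 3590.0 and 3542. H1f6, the testis linker histone, was at the other end with a mean of 39.9, and Hspa1l had 52.9.

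Of 14 spermatocyte genes 4 were among the 500 brightest, and the median rank was 1033. Besides Ldhc these were Ybx2, a protein that binds stored mRNA (9872, 8747 and 7626), Hspa2, the heat shock protein of meiosis (7192, 6611 and 5273), and Sycp3, a structural part of the synaptonemal complex (6094, 4370.1 and 5125). Ybx2 and Hspa2 were lowest on array 3, where the 25 brightest probe sets were highest. Spo11, which makes the DNA breaks of meiosis, had a mean of 212.8, and the mismatch repair relative Msh5 61.4.

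No spermatogonium gene was among the 500 or the 1000 brightest (0 of 14 measured), where 500 and 1000 of all 14217 genes lie. With a list this short, 0 lies near those shares. Of the 14, 5 reached 50 on all arrays, against 66.8% of all genes, and 5 lay below 50 on every array. Uchl1, a ubiquitin hydrolase of spermatogonia, led with 785.9, 889.8 and 1057, followed by Id4, a regulator of stem cells, with 664.6, 655.8 and 654.1. Gfra1, the receptor chain for GDNF, gave 335.2, 944.1 and 356.6. Array 2 was therefore far above both others for Gfra1, while Id4 differed little between arrays. The median rank of the list, 9907, was below that of all genes.

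Acrosome and tail genes, grouped by structure rather than by stage, share members with these lists. Of 16 measured tail, sheath and antioxidant genes 10 were among the 500 brightest, and of 12 acrosome and egg binding genes 3 were. Spaca3, a lysozyme-like acrosomal protein, and Spam1, a hyaluronidase, had means of 3086 ± 198.0 and 2695 ± 349.1 (SD, n = 3). Of 31 Spata, Spag and Tex genes, named for their testis expression, 9 were among the 500 brightest, with Spata6, Spata19, Spata20, Spata7 and Spata24 at the top. Together these lists held 110 genes, 1 of which, Spag11a, is a gene of the epididymis in spite of its Spag symbol. Others were chosen by structure or by symbol, which does not show that germ cells made their RNA. Of the 109 genes without Spag11a 43 were among the 500 brightest, the peroxidases Gpx4 and Prdx4 included. Of the 82 genes of the somatic cell lists of testis 1 was, against 3.52% of all genes.

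That somatic gene was Clu, which encodes clusterin, a main secreted protein of Sertoli cells, with 7115, 8178 and 8673 at rank 94. Other Sertoli genes lay lower: Cldn11, the tight junction protein of the blood-testis barrier, had 3024 ± 324.4 (SD, n = 3), the protease Ctsl 2086 ± 278.2 and Gstm7, a glutathione transferase, 1774 ± 161.0. Gja1, a gap junction protein, had 1494 ± 267.1. Of 20 measured Sertoli genes 16 reached 50 on all arrays, and the median rank was 3598. Gdnf, the growth factor for spermatogonial stem cells, lay at 10.9, 3.7 and 4.5, and Testin at 53.7, 32.9 and 33.6. Gdnf thus lay below the bound of 50 on every array, and Testin on arrays 2 and 3.

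None of 17 Leydig genes was among the 500 brightest (0), which is near the 3.52% of all genes, and the median rank was 3175. On all arrays 16 of the 17 reached 50, as did 66.8% of all genes. Hao2, a hydroxyacid oxidase, gave 2503, 2176 and 3634, and Fdx1, the electron carrier of steroid synthesis, 1580.5, 1621 and 2230.0. Cyp17a1, the enzyme that leads to androgens, gave 1116, 2239.5 and 2046. Array 1 held less than the other arrays for Cyp17a1, by 2.01-fold between the highest and the lowest. Hsd3b1, another enzyme of the same pathway, was steady at 1696, 1534 and 1753. Insl3, the peptide hormone of Leydig cells, had a mean of 1437 ± 357.4 (SD, n = 3).

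No gene of the peritubular or endothelial lists was among the 1000 brightest (0 of 13 and 0 of 11), which hold 1000 of all 14217 genes. Lists this short would hold few such genes at that share. Myl9, a myosin light chain of smooth muscle, led the 13 peritubular genes with 862.8, 923.5 and 990.5, and Myh11, the smooth muscle myosin, gave 752.3, 716.8 and 735.0. Acta2, smooth muscle actin, had 588.3 ± 148.8 (SD, n = 3), and the median rank was 6554, above the 7109 of all genes. Of 11 endothelial genes the brightest was Cldn5, a tight junction protein of vessels, with 241.2, 241.4 and 231.9. The median endothelial rank was 8575, below that of all genes.

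Of 18 macrophage and leukocyte genes 10 reached 50 on all arrays, against 66.8% of all genes, and the median rank was 7944. Aif1 stood apart from the rest of its list with 3766, 3275 and 3216 at rank 534. The next members were Mrc1, a mannose receptor of macrophages, with a mean of 851.5 ± 32.9 (SD, n = 3), and Cd74, the invariant chain, with 428.0 ± 51.4. Ptprc, which marks all leukocytes, had a mean of 17.3, and Itgam 7.87. The list was therefore led by 1 gene and its defining marker was under the bound of 50.

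Genes of red blood cells reached 50 on all arrays (3 of 3 measured). Hbb, a haemoglobin chain, gave 1038.0, 1958 and 1541, and Hba-a3, another chain, gave 147.0, 154.2 and 290.7. The highest array was thus array 2 for Hbb and array 3 for Hba-a3. Alas2, the enzyme of haem synthesis in red cells, gave 471.6, 526.8 and 570.9.

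Markers of tissues that a testis sample should lack were checked against the label. Of 48 such genes 5 reached 50 on all arrays and 30 stayed below 50 on every array, and the highest signal of any was 189.7. That was Fgg, a fibrinogen chain of liver, with 189.7, 161.6 and 161.9. The other genes past the bound were Alb, albumin (66.4, 80.5 and 55.2), Ins1, insulin (121.2, 93.4 and 118.6), Syt1, a synaptic protein (73.7, 68.0 and 69.9), and Cfd, a fat cell protease (88.8, 111.7 and 165.1). All 4 measured epididymis genes (Spag11a, Cst11, Adam7 and Defb1) lay under 50 on every array.

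**Figure D2:**
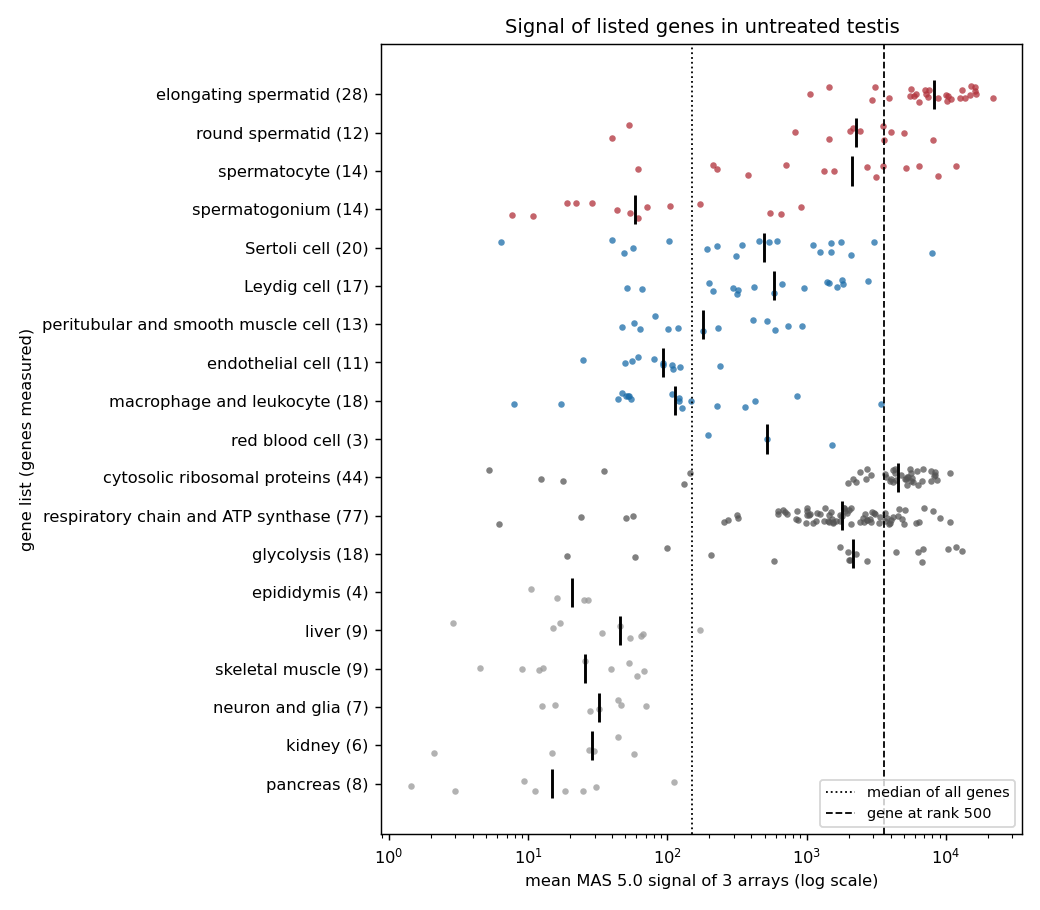
Mean signal over 3 arrays (x axis, log scale) of each measured gene, 1 row per gene list with the number of genes measured, germ cell lists in red, somatic lists of testis in blue, general cell functions in dark grey and other tissues in light grey. The black tick is the list median, the dotted line the median of all genes (149.1) and the dashed line the gene at rank 500 (3591); most elongating spermatid and ribosomal protein genes lie right of the dashed line, and no gene of the other tissues reaches 200 in mean signal.

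Genes of general cell functions shared the bright end with the spermatid genes. These lists also hold germ cell genes, which were not taken out. Gapdhs and Ldhc (glycolysis), Cox6b2 (respiratory chain), and Hspa2, Dnajb3 and Hspa1l (chaperones) are counted here and in the germ cell lists. Hspb9, described above as a protein of the testis, is counted as a chaperone. Of 44 cytosolic ribosomal protein genes 31 were among the 500 brightest, and the median rank was 329.5. Rps29 led the list with 9574, 9454 and 12811, followed by Rps23, Rps24, Rpl27a and Rps6. Probe sets with several symbols are not in the list, and that of Rpl31 and its relatives was brighter, with a mean of 11713. Rpl39l1, with a mean of 11294, is not in the list either. At the other end 4 of the 44 lay below 50 on every array. They were Rpl3l, the ribosomal protein form of striated muscle (5.60, 5.00 and 5.20), and Rps13, Rpl28 and Rpl30, with means of 34.9, 17.9 and 12.4. Low signal in this list was therefore not limited to the muscle form. Ribosomal protein genes have many processed copies, so their probe sets may also bind relatives.

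Of 77 respiratory chain and ATP synthase genes 18 were among the 500 brightest, with a median rank of 1150. Uqcrfs1, the iron-sulphur protein of complex III, gave 9926, 9169.5 and 13023. Cox7b2, a cytochrome oxidase subunit, and Cox6b2, its testis relative of another subunit, had means of 8996 ± 1835 and 6119.9 ± 143.5 (SD, n = 3). Atp5f1b, the catalytic subunit of ATP synthase, had 6902 ± 507.8. The muscle forms were at the other end, with Cox8b at 6.20 and Cox7a1 at 24.2.

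Of 18 glycolysis genes 7 were among the 500 brightest. After Gapdhs and Ldhc came Hk1, hexokinase, with 9967, 9557 and 11599.6, then Tpi1, Ldha and Eno1. Eno2, the neuronal enolase, was at 19.1 and Eno3, the muscle enolase, at 58.5. The chaperone list, chosen by symbol, held 73 genes, among them Hspg2, which encodes the matrix protein perlecan. Of the other 72, which include proteins that act with chaperones, 14 were among the 500 brightest, with Cct5, Cct4 and Tcp1, subunits of the ring that folds actin and tubulin, next to Hspb9. Hsp90aa1, whose probe sets carry several symbols, is not in the list, and its brighter probe set had a mean of 12014. Of 36 proteasome genes 5 were among the 500 brightest, and all 36 reached 50 on all arrays. Of 34 ubiquitin conjugation genes 6 were, led by Ube2j1, an enzyme of the endoplasmic reticulum, and Ube2s.

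The tubulin list held 15 genes chosen by symbol, of which 4 (Tubgcp2, Tubgcp3, Tubgcp4 and Tubgcp6) encode proteins of the gamma-tubulin complex and 11 encode tubulins. Of the 11 tubulins, Tubb4b and Tuba8 were among the 500 brightest. Of 10 housekeeping genes measured 3 were, namely the elongation factors Eef1a1 and Eef2 and the ribosomal Rplp0. Ywhaz, often used as a reference gene, gave 2454, 2407 and 1221, so array 3 had less of it by 2.01-fold. Hprt1 and Pgk1, also used as references, had means of 617.0 and 581.0.

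Several enzymes and structural proteins have a form made in germ cells beside a widely expressed one. Of 20 such pairs 9 had both forms measured. The testis form gave the brighter signal in 7 of the 9 pairs, on every array. Pdha2, the testis subunit of pyruvate dehydrogenase, gave 1423, 1502 and 1421, and its X-linked relative Pdha1 gave 129.6, 128.9 and 124.1. Cox6b2 gave 6277, 5997 and 6086, and Cox6b1 571.1, 619.3 and 851.7. Capza3, a capping protein of actin, gave 7540.0, 7452 and 7816, and Capza1 2046, 1902 and 1624. Array values of the forms did not overlap in these 3 pairs, but the probes differ too, and the signal is no ratio of transcripts.

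The same direction held for Ldhc over Ldha, Oaz3 over Oaz1, Tbpl1 over the TATA-binding protein gene Tbp, and Dbil5 over the acyl-CoA binding protein gene Dbi. The exceptions were the adenine nucleotide carriers, where Slc25a4 had 946.5 ± 77.2 and Slc25a31 841.2 ± 83.2 (SD, n = 3), and the J proteins, where Dnajb1 had 6680.3 ± 1037 and Dnajb3 5608 ± 561.2. In both exceptions the widely expressed form was brighter on every array, but the ranges of the forms overlapped. Of the testis forms 7 of 9 were among the 500 brightest genes, and of the widely expressed forms 2 of 9.

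**Figure D3:**
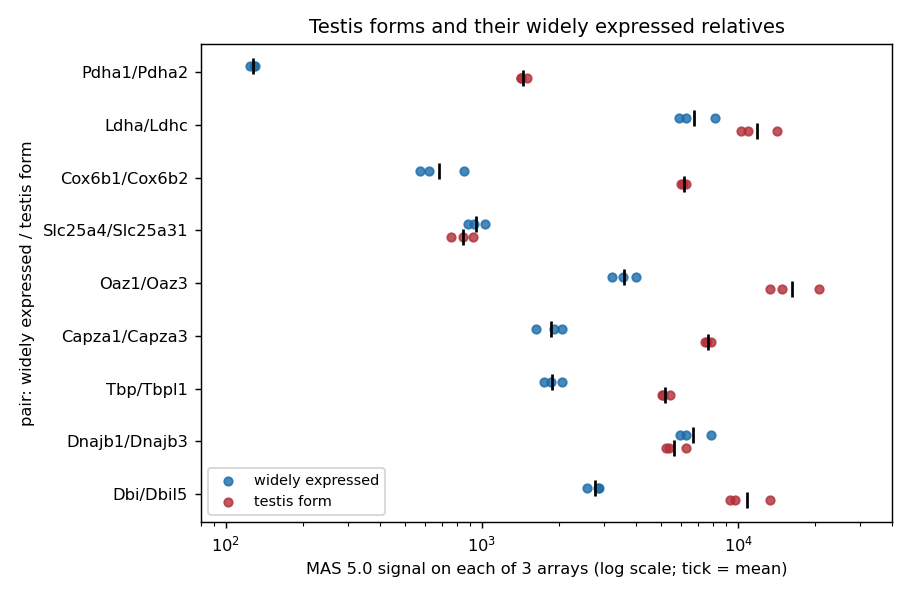
Signal on each of 3 arrays (x axis, log scale) for 9 pairs of genes, the widely expressed form in blue and the testis form in red, with a tick at the mean. Red points lie right of blue ones in 7 pairs, with Slc25a4/Slc25a31 and Dnajb1/Dnajb3 as the exceptions.

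The X chromosome had few genes among the 500 brightest. It is silenced during meiosis, whose part in these values was not tested. RefSeq's promoter table placed 11700 of the 14217 genes on a chromosome, and 386 of them (3.30%) on the X. Of the 423 placed genes among the 500 brightest, 6 were X-linked, a share of 1.42% with an exact 95% binomial interval of 0.522% to 3.06% that covers counting only. They were Tspan6, a tetraspanin; Akap4; H2al2l, a histone variant gene; Tmsb4x and Tmsb15b2, thymosins that bind actin; and Prdx4, a peroxidase. Tspan6 gave 9616, 9146.5 and 12649.9. Akap4, which acts after meiosis, gave 9009.9, 8969 and 12272. The median rank was 8876 over X-linked genes and 6738 over 11311 autosomal ones, and 56.0% and 68.8% of them reached 50 on all arrays. At other cuts the X-linked share was 2 of 82 placed genes (2.44%) among the 100 brightest and 10 of 858 (1.17%) among the 1000 brightest. In the elongating spermatid list it was 1 of 24 (4.17%).

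The steadiness of the signals varied with their brightness. Over 15194 probe sets of at least 50 on all arrays, the highest array exceeded the lowest by a median of 1.36-fold, and 67.1% stayed within 1.5-fold, called steady below. A further 8.94% differed by over 2-fold. Over genes, 72.0% (6840 of 9498) were steady. Of the 500 brightest genes 426 were steady, and of the 100 brightest 78, with none (0) over 2-fold.

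Array 3 lay above the other arrays at the bright end. The brightest genes were chosen by a mean that includes array 3, which favours genes high there. Of the 500 brightest genes 88.2% were highest on array 3 and of the 100 brightest 98 were, against 39.9% of all genes of at least 50; array 1 was highest in 30.5% of all genes and array 2 in 29.6%. By brightness on arrays 1 and 2, the ratio of array 3 to their mean was 0.948 at signals of 50 to 100, 0.875 at 100 to 500, 1.01 at 500 to 2000, 1.17 at 2000 to 5000 and 1.27 above 5000. The ratio of array 2 to array 1 stayed between 0.962 and 1.02 over the same ranges. The probe sets for the 3′ and 5′ parts of actin mRNA, a common check of RNA and labelling, gave a 3′ to 5′ ratio of 1.98, 1.66 and 2.28 on arrays 1, 2 and 3. For hexokinase it was 1.41, 1.36 and 1.87, and for GAPDH 0.920, 0.867 and 0.907. Array 3 was highest in 2 of these 3 ratios, whose part in the result was not tested. Without array 3, 91.2% of the probe sets were within 1.5-fold. After quantile normalization, which gives all arrays 1 distribution, 489 of the 500 brightest genes were steady and 40.0% were highest on array 3.

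**Figure D4:**
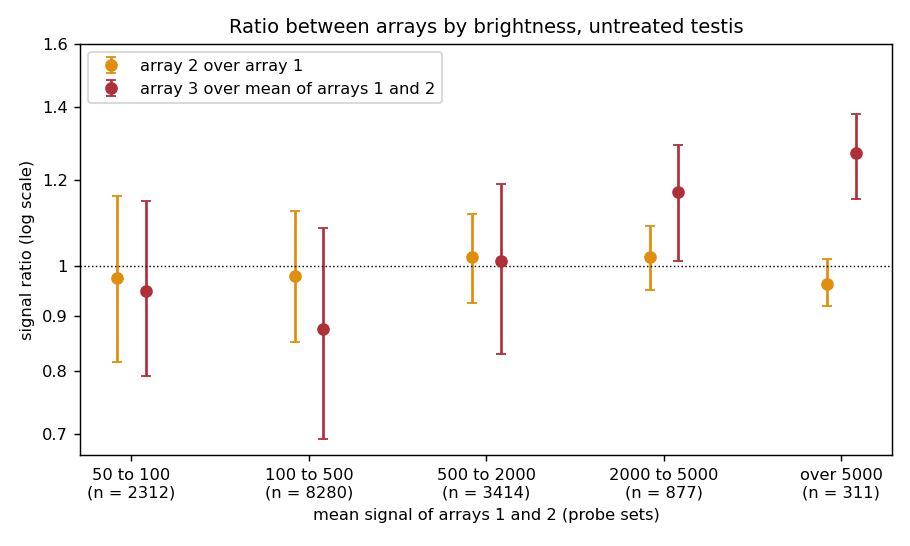
Ratio of signals between arrays (y axis, log scale) in 5 ranges of brightness on arrays 1 and 2 (x axis, with the number of probe sets), as the median with bars from the 25th to the 75th percentile. The ratio of array 3 to the mean of arrays 1 and 2 lies at 0.875 for signals of 100 to 500 and at 1.27 above 5000, while array 2 over array 1 stays near 1.

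The gene lists followed this pattern to different degrees. On array 3 were the highest values of 25 of 28 elongating spermatid genes, 36 of 40 ribosomal protein genes, 63 of 73 respiratory chain genes and 32 of 36 proteasome genes. After quantile normalization these counts were 10, 25, 48 and 28, and 4380 of all 9498 genes were highest there. Spermatocyte genes went another way: 3 of 13 were highest on array 3 and 8 on array 1. Of 9 tubulins of at least 50 on all arrays 4 were highest on array 2 and 4 on array 3, with Tubb5 at 822.4, 831.4 and 401.5; with the gamma-tubulin complex genes, chosen by symbol too, array 2 was highest in 7 of 13. Of 16 Sertoli genes 15 were steady, of 10 peritubular genes 7 and of 16 Leydig genes 10, against 72.0% of all genes. Among the 28 elongating spermatid genes 19 were steady, and among the 40 ribosomal protein genes 28.

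Among the 100 brightest genes the steadiest was Phkg2, the catalytic subunit of phosphorylase kinase in testis and liver, with 8618.5, 8994 and 8609. Rpl41, a ribosomal protein, gave 7587, 7839.6 and 8150.3, and Btbd1 8029.6, 7991 and 8791. Taf9, Eef1g and Samd13 followed with ratios of 1.14 to 1.16 between the highest and lowest array. The widest were Cct5 with 6635, 6833 and 11405, Hspb9, Prm1, Gsg1, Psma6 and Lyar, with ratios of 1.66 to 1.72. All 6 of the widest were highest on array 3, which is also part of the mean that chose the 100.

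Departures of 1 array were sought among the 500 brightest genes as the log2 ratio to the mean of the other arrays. The 500 were chosen by the mean of the same 3 arrays, so a gene near the edge can enter through 1 high array. Cimip1 (2595.8, 2978.6 and 5244.1, rank 492) and Washc3 (3349.5, 2531.6 and 4928.6, rank 493) lay at that edge. On array 3 the median was 0.31, and Cimip1 (0.91), Spata33 (0.79), Tmem97 (0.76) and Cct5 (0.76) lay furthest above. Furthest below on array 3 were Hsp90b1, a chaperone of the endoplasmic reticulum (-0.45), Tmsb4x (-0.39), Hspa2 (-0.39) and the GTPase Arf1 (-0.31). On array 1 the median was -0.15, with Rps15 (-0.77), Rpl27 (-0.68), Cimip1 (-0.66) and Atp5f1e (-0.56) lowest and Sycp3 (0.36), Dnajb7 (0.35), Ppp2r5c (0.29) and Hspa2 (0.28) highest. On array 2 the median was -0.18, with Washc3 (-0.71), Ropn1l (-0.64), Prm1 (-0.54) and Poteml2 (-0.51) lowest and Hsp90b1 (0.34), Mgll (0.31), Fdps (0.24) and Arf1 (0.22) highest.

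Probe sets of 1 gene differed by more than the arrays did. Over 2226 genes with 2 or more probe sets of at least 50 on all arrays, the brightest exceeded the dimmest by a median of 2.16-fold, and by over 10-fold in 189 genes (8.49%). Gpx4 had a second probe set with 36.0, 25.7 and 7.20, and 1 of the 3 probe sets of Odf2 gave 17.7, 6.30 and 22.2. The 2 probe sets of Gsg1 differed by 1.10-fold, and those of Spata6 by 1.58-fold. The edge of the 500 brightest genes was narrow: Timm8b, at rank 500, had a mean of 3591.1 and Camk4, next after it, 3590.0.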

How the data were processed

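For each probe set of the Affymetrix Rat230_2 arrays the authors deposited a linear intensity, the MAS 5.0 signal; MAS 5.0 and GeneSpring 7.2 are named per the labels, and the scaling target is not given in the sources used here. Per the labels' protocols, total RNA of frozen testis was turned into biotin-labelled cRNA. Per the file headers, the other deposited files hold wash and stain settings and no score or signal. Of 31099 probe sets 57 controls were left out, and the values of 5 treated arrays were not used. By the probe annotation, 20826 probe sets had 1 gene symbol, 436 several and 9780 none. Of 14217 genes 14167 matched RefSeq by gene identifier and 0 symbols changed. List symbols without such a probe set were not analysed here, nor were proteins. Values were used as deposited, with Python 3.11.15, pandas 2.3.3 and scipy 1.17.1. The number of arrays limits the precision. The scripts were tested on simulated data. Named genes are the 25 brightest probe sets, up to 5 leading members of a list, the extremes of steadiness and of single arrays, all measured pairs and the genes at the edge of the 500 brightest; the lowest or defining members of lists and the genes with TGATGTCA were named after their values were seen. Bright genes that a list leaves out, such as Rpl31, were also named after their values were seen. The lists and rules were chosen with earlier results of these data known.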

Additional observations from a re-analysis of the deposited data

How the results depend on the processing

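The order of probe sets changed little with the settings tried: 93 to 99 of the 100 brightest stayed among the 100 with log2 means, medians, quantile normalization or equal medians, and 93 to 94 without 1 array. The share of signal taken by the 100 brightest, 9.86%, was 9.10% to 10.4% without 1 array; it is 1.46% for the 10 and 43.9% for the 1000 brightest. Elongating spermatid genes numbered 24 among the 500 brightest genes without any 1 array and 14 among the 100. The share of steady probe sets, 67.1%, was 59.2% with equal medians, 40.9% with no bound on signal, 33.1% with a stricter limit and 91.1% with a limit of 2-fold, and 77.7% to 91.2% over 2 arrays, where fewer arrays leave less room for spread. Counting acrosome genes by the mean of all probe sets of a gene gave 5 among the 500 brightest in place of 3, and ubiquitin conjugation genes 3 in place of 6; without array 3, round spermatid genes numbered 5 in place of 3. The median ratio between probe sets of a gene, 2.16, was 3.41 with no bound on signal and 1.91 with a bound of 100. The X-linked share without 1 array was 1.41% to 1.42%, and the share of promoters with TGACG, 35.5%, was 34.8% to 35.4% (it was 5.67% for TGATGTCA, added after the data were seen). No paired analysis was possible because 1 group alone was described. Signals under 50 carry no order.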
